A study of Homo sapiens with 2 samples.

Results

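The genes described here build, bundle, anchor and pull on actin filaments in 2 human liver cancer lines, SKHEP1 and HepG2. The set holds 41 genes for actins, calponins and transgelins, tropomyosins and caldesmon, myosin II chains, cross-linkers, focal adhesion proteins, monomer-binding and severing proteins, and the ezrin, radixin and moesin (ERM) family. It was chosen by gene symbol, and each symbol occurs once among the 57820 genes listed for each library. Poly(A)-selected, stranded RNA-seq was done on 1 library per line, both from unmodified cells labelled wild type and grown in the same serum-containing medium. SKHEP1, labelled as endothelial cells, is a line from a liver adenocarcinoma, and HepG2 is labelled as hepatocellular carcinoma. The stated purpose of the study was to examine the long noncoding RNA PURPL and its transcript variants in these lines.

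Actin filaments grow from monomers held by profilin and are cut and recycled by cofilin and gelsolin. Tropomyosin and caldesmon lie along the filament and control access of myosin II, a motor of heavy and light chains that pulls filaments past each other. Alpha-actinins, filamins, fascin, plastins and villin tie filaments into networks or bundles, talin, vinculin, zyxin and paxillin link them to integrins, and ERM proteins link them to the plasma membrane. In liver epithelium, actin bundles support the microvilli of the bile canaliculus, whereas stress fibres rich in tropomyosin and myosin II are typical of spread mesenchymal cells in culture.

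The SKHEP1 library held 19940557 expected counts, which are reads assigned to genes by estimation, and the HepG2 library 22477757. Levels are given as the deposited TPM, a length-scaled share of all transcripts, so that genes can be compared with each other. Ratios between the lines are of CPM, counts scaled to library size with TMM factors. A gene was compared if SKHEP1 or HepG2 had 10 counts or more. Each line was sequenced once, so differences could be neither tested nor checked against replicates. The 95% intervals are exact and cover counting error alone, and since the reads carried no molecular identifiers, PCR copies cannot be told from separate molecules. The labels were set beside marker genes. All 10 hepatocyte markers were at least 4-fold higher in HepG2, against 13.0% of all genes compared. Their summed TPM was 97.3 in SKHEP1 and 50410 in HepG2. In SKHEP1 nearly all of that sum was SERPINA1, at 95.5 TPM, and 8 of the 10 were at 0 counts. Of 12 endothelial markers, 5 were at 0 counts in SKHEP1, among them KDR, FLT1 and ERG, and CDH5 had 1 count in SKHEP1 and 5 in HepG2, so the defining endothelial genes were at or near 0 in the line labelled endothelial. ROBO4 had 343 counts in SKHEP1 and 4 in HepG2, and EGFL7 178 in SKHEP1 and 5 in HepG2, while ESAM had 16 in SKHEP1 and 144 in HepG2. Of 5 endothelial markers compared, these 3 alone passed 4-fold. They were 2 towards SKHEP1, against 16.5% of all genes, and 1 towards HepG2, against 13.0% of all genes. In bulk libraries, fewer cells that express a gene and less RNA per cell cannot be told apart.

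Transcripts of the actin cytoskeleton took a larger part of the SKHEP1 library than of the HepG2 library. The 41 genes summed to 25674 TPM in SKHEP1, or 2.57% of all transcripts, and 12714 TPM in HepG2, or 1.27%. Without ACTB and ACTG1 the sums were 16764 TPM in SKHEP1 and 7227 TPM in HepG2. Among the 100 genes with the highest TPM stood 6 members in SKHEP1, namely ACTB, ACTG1, TPM1, MYL6, PFN1 and CFL1, and 2 in HepG2, ACTB and ACTG1. Of the 40 members compared, 31 (77.5%) had a ratio of SKHEP1 over HepG2 above 1, as had 51.0% of the 15436 genes compared. The median log2 ratio was 0.89 for the members and 0.03 for all genes compared.

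**Figure D1:**
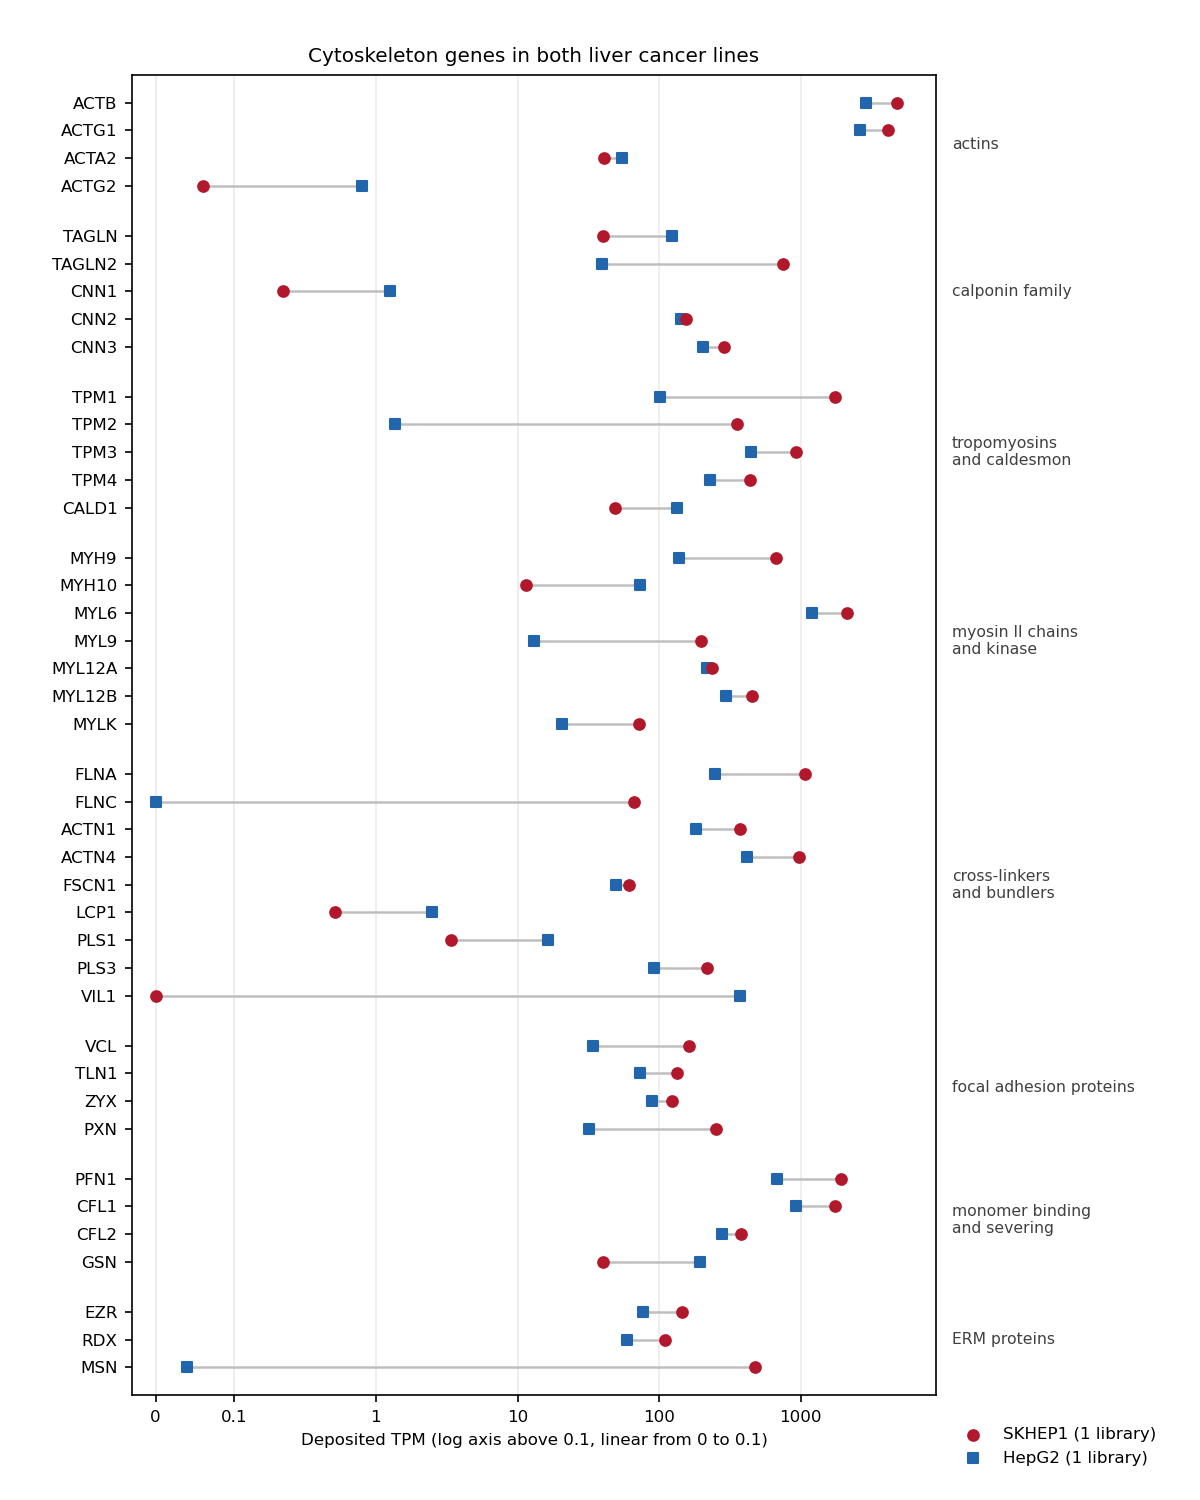
Deposited TPM (log axis above 0.1) of all 41 genes by role, with circles for SKHEP1 and squares for HepG2 and 1 library per line. The SKHEP1 circle lies to the right for most genes, and FLNC, MSN and VIL1 lie at or near 0 TPM in one line only.

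A ratio of at least 4 towards SKHEP1 was reached by 10 of the 40 members, or 25.0%, against 16.5% of all genes compared. A ratio of at least 4 towards HepG2 was reached by 5, or 12.5%, against 13.0% of all genes compared. The share higher in HepG2 was thus near that of all genes. The 10 were TAGLN2, TPM1, TPM2, MYH9, MYL9, FLNA, FLNC, VCL, PXN and MSN, and the 5 were MYH10, GSN, PLS1, LCP1 and VIL1. The other 25 lay within 4-fold, 21 of them with a ratio above 1 and 4 with a ratio below 1. The remaining gene, ACTG2, was under 10 counts in both libraries and was not compared. Many members are abundant, and abundant genes were less often far apart. Among the 3305 genes with a mean TPM of at least 50 in the 2 libraries, 6.84% passed 4-fold towards SKHEP1 and 6.75% towards HepG2. Of the 33 members in that range, 9 passed it towards SKHEP1 and 2, VIL1 and GSN, towards HepG2. Because the range rests on the mean, a gene can enter it through the line where it is high. MSN did so with 474.0 TPM in SKHEP1 and 0.04 TPM in HepG2, and VIL1 with 0 TPM in SKHEP1 and 370.9 TPM in HepG2. The counts in this range are thus a description and no separate support.

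**Figure D2:**
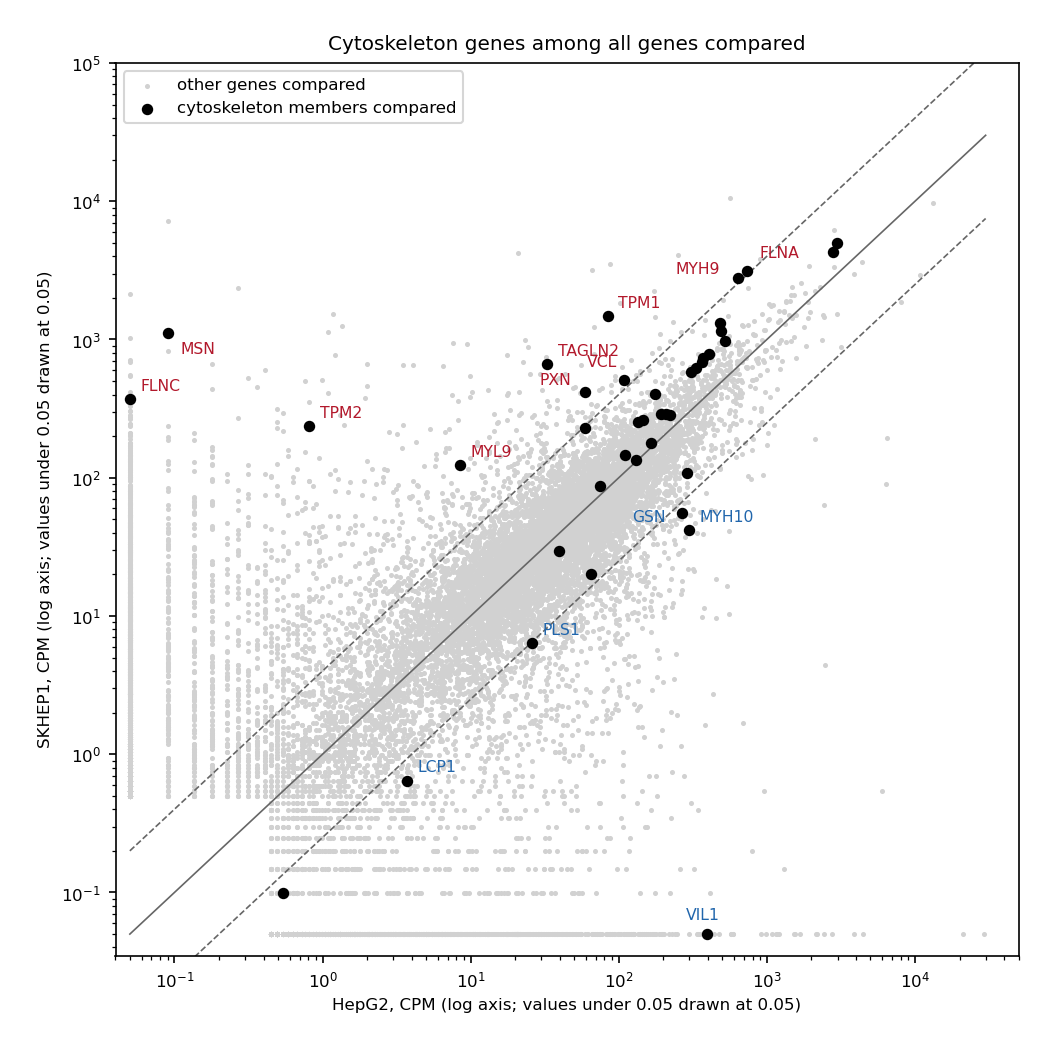
CPM of each gene compared in SKHEP1 (vertical log axis) and HepG2 (horizontal log axis), with the 40 members compared in black and dashed lines at 4-fold. The 15 named members lie outside the dashed lines, 10 towards SKHEP1 and 5 towards HepG2, and most others lie between the diagonal and the upper line. The unnamed point below the lower line is CNN1, drawn at its raw counts of 2 in SKHEP1 and 12 in HepG2.

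Cytoplasmic actins made up nearly all actin transcripts in both lines and were moderately higher in SKHEP1. ACTB, or beta-actin, had 4782 TPM in SKHEP1 and 2868 TPM in HepG2, a 1.66-fold difference (interval 1.64 to 1.67). ACTG1, or gamma-actin, had 4129 TPM in SKHEP1 and 2618 TPM in HepG2 and was 1.54-fold higher in SKHEP1 (1.52 to 1.56). ACTB took 53.4% of the summed actin TPM in SKHEP1 and 51.8% in HepG2, so the balance of the 2 cytoplasmic actins was close between the lines. The smooth muscle actins were minor in both. ACTA2, the alpha isoform found in smooth muscle and myofibroblasts, had 40.8 TPM in SKHEP1 and 54.5 TPM in HepG2, under 1% of actin transcripts in each line. ACTG2, the enteric smooth muscle isoform, had 1 count in SKHEP1 and 9 in HepG2.

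Beta- and gamma-actin are among the most alike members of the set, and their coding starts are shown to make that visible. In the GENCODE 29 reference transcripts (build GRCh38) their coding sequences, 1125 bases each, were identical at 91.3% of positions, and the longest identical run was 59 bases. The first 60 coding bases, counted from the A of the start codon, differed at 10 positions, marked by capitals.
ACTB: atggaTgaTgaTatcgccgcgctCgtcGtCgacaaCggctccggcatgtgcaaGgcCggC
ACTG1: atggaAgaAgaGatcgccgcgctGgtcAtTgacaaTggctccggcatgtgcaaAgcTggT
Reads that fit several genes are divided by estimation. ACTB had a non-whole expected count in both lines, whereas that of ACTG1 was non-whole in SKHEP1 and whole in HepG2. Which genes shared those reads is not resolved by values per gene. Summing both genes left a log2 ratio of 0.68, between the values of each alone. MYL12A and MYL12B were the most alike pair examined, at 95.7% over their coding sequence with an identical run of 77 bases.

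Many actin cytoskeleton genes are controlled by serum response factor (SRF), which binds the CArG box, a motif of 10 letters made of a CC, a run of A or T, and a GG. RefSeq promoter windows of 300 bases (GRCh38.p14, 250 before to 50 after a start) were available for 36 of the 41 genes, in 66 windows. ACTB, TAGLN, MYL9, FSCN1 and VIL1 had no window and were not searched, and of these MYL9 and VIL1 passed 4-fold. On both strands, the box being read the same way from either, 7 of these 66 windows held it, against 1.29% of the 35116 windows of all genes. The 7 genes were ACTG1, ACTG2, CNN2, TPM4, MYLK, ACTN1 and FLNA. Of these 7, only FLNA was at least 4-fold higher in a line. Among the genes searched, a box was thus found in highly expressed, moderately different and nearly silent ones. The 200 bases before the start of ACTG1 (chr17:81512800-81512999, minus strand), abundant in both lines, and of ACTG2 (chr2:73892808-73893007, plus strand), near 0 in both, are shown with the boxes in capitals. The box of ACTG1 began 94 bases before the start, and those of ACTG2 at 110 and 73 bases.
ACTG1: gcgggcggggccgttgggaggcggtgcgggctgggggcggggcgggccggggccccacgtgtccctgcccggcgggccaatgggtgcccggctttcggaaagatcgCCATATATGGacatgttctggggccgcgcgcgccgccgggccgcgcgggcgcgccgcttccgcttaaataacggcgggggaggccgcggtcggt
ACTG2: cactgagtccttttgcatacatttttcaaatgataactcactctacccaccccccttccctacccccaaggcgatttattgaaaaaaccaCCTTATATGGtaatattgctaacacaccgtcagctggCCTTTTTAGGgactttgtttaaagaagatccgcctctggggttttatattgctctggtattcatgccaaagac
A match of letters is a description and does not show binding.

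In the calponin family the leading member differed between the lines. TAGLN2 (ENSG00000158710.10, chromosome 1), the transgelin of nonmuscle cells, had 13367 counts and 747.8 TPM in SKHEP1, against 731 counts and 39.4 TPM in HepG2. It was 20.1-fold higher in SKHEP1 (18.6 to 21.7) and made up 60.8% of the family's TPM there, against 7.73% in HepG2. Its paralog TAGLN, or SM22, an early smooth muscle gene, lay the other way within 4-fold. TAGLN had 406 counts and 39.97 TPM in SKHEP1 and 1437 counts and 122.7 TPM in HepG2, 3.22-fold higher in HepG2 (2.89 to 3.61). TAGLN2 transcripts were thus 18.7 per TAGLN transcript in SKHEP1 and 0.321 in HepG2. The nonmuscle calponins CNN2 and CNN3, which stabilise filaments, lay within 4-fold. CNN2 had 154.2 TPM in SKHEP1 and 143.4 TPM in HepG2, and CNN3, the leading member in HepG2, had 288.2 TPM in SKHEP1 and 202.5 TPM in HepG2. CNN1, the smooth muscle calponin, was near 0 with 2 counts in SKHEP1 and 12 in HepG2, a raw ratio of 5.47 towards HepG2 with an interval of 1.22 to 50.3. It counts as within 4-fold because counts under 3 are taken as 3.

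The tropomyosin transcripts differed in both amount and mix. They summed to 3460 TPM in SKHEP1 and 774.2 TPM in HepG2, and the difference was greatest for TPM1 in TPM and for TPM2 as a ratio. TPM1 (ENSG00000140416.15, chromosome 15), source of muscle and of stress fibre isoforms, had 29828 counts and 1747 TPM in SKHEP1, against 1870 counts and 101.0 TPM in HepG2. That is a 17.5-fold difference (16.7 to 18.4). TPM2 (ENSG00000198467.9, chromosome 9), the beta-tropomyosin of muscle and fibroblasts, had 4785 counts and 355.2 TPM in SKHEP1, against 18 counts and 1.36 TPM in HepG2, 291.9-fold higher in SKHEP1 (184.5 to 492.9). The other two lay within 4-fold. TPM3 was 1.98-fold higher in SKHEP1, at 922.5 TPM against 444.7 TPM in HepG2, and TPM4 was 1.85-fold higher, at 435.8 TPM against 227.0 TPM in HepG2. The mix therefore differed, with TPM1 at 50.5% of tropomyosin TPM in SKHEP1 and 13.1% in HepG2, and TPM3 at 26.7% in SKHEP1 and 57.4% in HepG2. Caldesmon, CALD1, which binds tropomyosin and holds back myosin, had 49.0 TPM in SKHEP1 and 134.5 TPM in HepG2 and was 2.69-fold higher in HepG2 (2.56 to 2.83). SKHEP1 had 0.0281 CALD1 transcripts per TPM1 transcript, against 1.33 in HepG2.

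**Figure D3:**
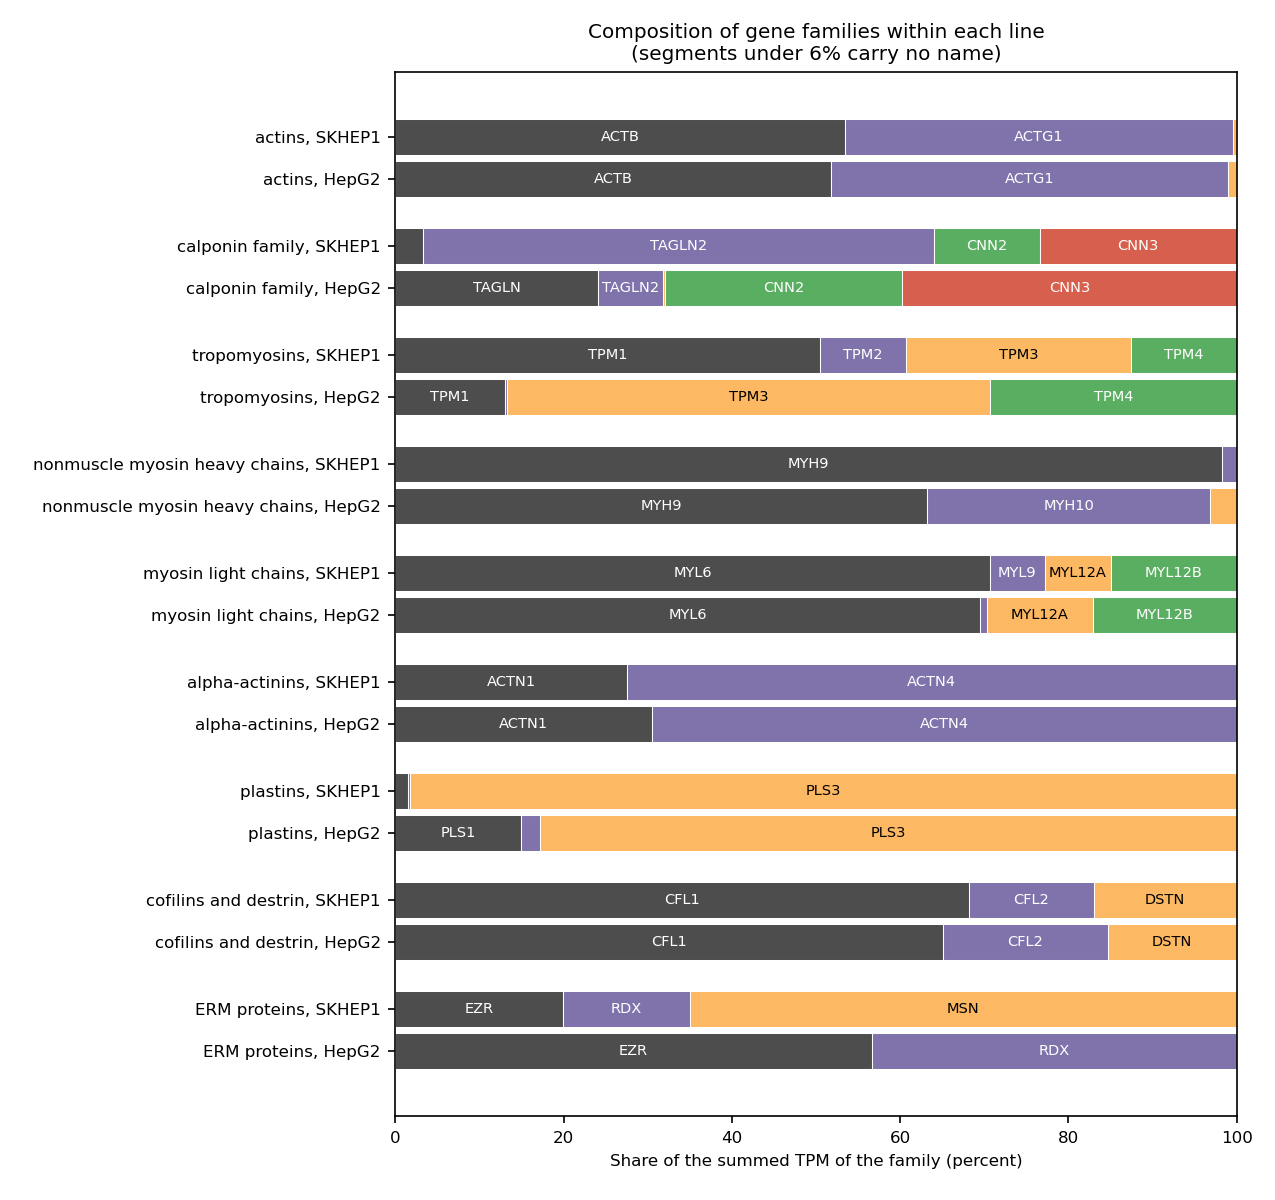
Share of the summed TPM (percent) that each gene takes within its family, for 9 families, with SKHEP1 above HepG2 in each pair and 1 library per bar. Actins, alpha-actinins and cofilins keep close shares, while the leading gene differs for the calponin family, the tropomyosins and the ERM proteins.

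The myosin II heavy chains were nearly all MYH9 in SKHEP1 and a mixture in HepG2. MYH9 (ENSG00000100345.16, chromosome 22), the heavy chain of nonmuscle myosin IIA, had 55995 counts and 663.6 TPM in SKHEP1, against 14199 counts and 138.0 TPM in HepG2, 4.33-fold higher in SKHEP1 (4.25 to 4.41). MYH10 (ENSG00000133026.8, chromosome 17), the IIB heavy chain, had 844 counts and 11.6 TPM in SKHEP1, against 6606 counts and 73.3 TPM in HepG2, 7.13-fold higher in HepG2 (6.64 to 7.67). There were 57.5 MYH9 transcripts per MYH10 transcript in SKHEP1 and 1.88 in HepG2. MYH14, the IIC heavy chain, is no member but belongs to the same family. MYH14 took 2 counts in SKHEP1, against 611 in HepG2. Over the 3 heavy chains, MYH9 took 98.3% of the TPM in SKHEP1 and 63.2% in HepG2.

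Among the light chains the smooth muscle type stood apart. MYL9 (ENSG00000101335.5, chromosome 20), a regulatory light chain typical of smooth muscle, had 2490 counts and 196.4 TPM in SKHEP1, against 187 counts and 13.1 TPM in HepG2, 14.6-fold higher in SKHEP1 (12.6 to 17.1). MYL6, the essential light chain, led the family in both lines with 2119 TPM in SKHEP1 and 1194 TPM in HepG2, 1.89-fold higher in SKHEP1. The nonmuscle regulatory chains lay within 4-fold. MYL12A had 235.2 TPM in SKHEP1 and 215.8 TPM in HepG2, and its ratio of 1.04 had an interval of 0.983 to 1.09 that includes 1. MYL12B had 449.0 TPM in SKHEP1 and 294.1 TPM in HepG2, 1.485-fold higher in SKHEP1 (1.427 to 1.545). MYLK, the kinase that switches the regulatory chains on, had 4630 counts and 71.7 TPM in SKHEP1, against 1311 counts and 20.7 TPM in HepG2, 3.88-fold higher in SKHEP1 (3.65 to 4.13) and just short of the limit. The 200 bases before its start (chr3:123620549-123620748, minus strand), with the CArG box in capitals, were poor in CpG with 3 such dinucleotides.
MYLK: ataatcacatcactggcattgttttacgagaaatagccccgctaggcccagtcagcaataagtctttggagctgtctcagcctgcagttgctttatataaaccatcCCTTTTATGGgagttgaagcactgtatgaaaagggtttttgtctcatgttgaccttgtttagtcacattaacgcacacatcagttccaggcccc

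**Figure D4:**
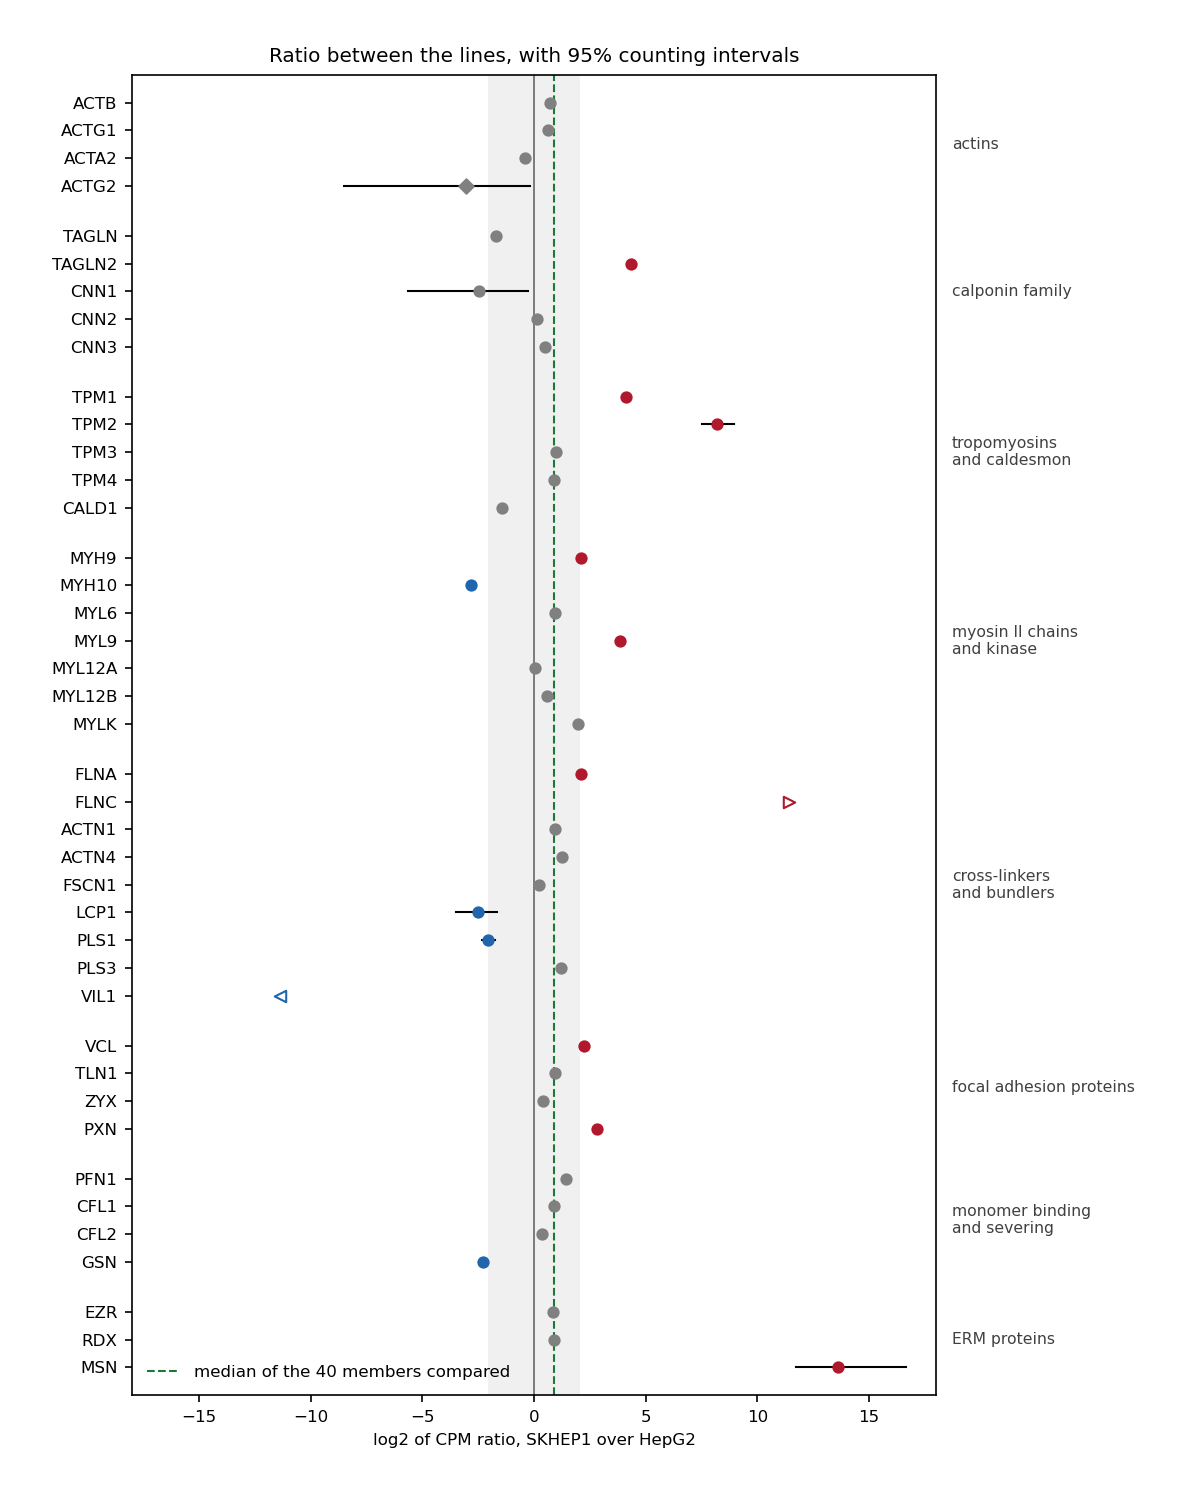
log2 of the CPM ratio of SKHEP1 over HepG2 for all 41 genes, with 95% counting intervals as lines, the range within 4-fold shaded, open triangles for bounds where a line had 0 counts and a diamond for ACTG2, which was not compared. MSN, TPM2 and FLNC lie far to the SKHEP1 side and VIL1 far to the HepG2 side, and CNN1 is drawn at its raw ratio.

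The cross-linkers and bundlers included FLNC and VIL1, the members at 0 counts in one line. FLNC (ENSG00000128591.11, chromosome 7), the filamin of striated muscle, had 7508 counts and 65.9 TPM in SKHEP1, against 0 counts in HepG2, and was at least 2748-fold higher in SKHEP1 against a floor of 3 counts per library. FLNA (ENSG00000196924.10, chromosome X), the widespread filamin that links actin to integrins, had 63487 counts and 1072 TPM in SKHEP1, against 16292 counts and 247.6 TPM in HepG2. It was 4.28-fold higher in SKHEP1 (4.20 to 4.35). The coding sequences of FLNA and FLNC were 76.0% identical. FLNC had a non-whole expected count in SKHEP1, whereas that of FLNA was whole in both lines. The bases before the starts of both genes were rich in CpG. FLNA (chrX:154374635-154374834, minus strand) had 30 CpG in 200 bases and a CArG box, shown in capitals. FLNC (chr7:128830206-128830405, plus strand) had 33 CpG, shown in capitals, and no box in its window.
FLNA: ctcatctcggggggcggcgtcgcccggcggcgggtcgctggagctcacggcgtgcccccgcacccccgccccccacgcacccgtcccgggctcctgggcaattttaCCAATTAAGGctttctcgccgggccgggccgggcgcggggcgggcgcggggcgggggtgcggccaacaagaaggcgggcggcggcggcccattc
FLNC: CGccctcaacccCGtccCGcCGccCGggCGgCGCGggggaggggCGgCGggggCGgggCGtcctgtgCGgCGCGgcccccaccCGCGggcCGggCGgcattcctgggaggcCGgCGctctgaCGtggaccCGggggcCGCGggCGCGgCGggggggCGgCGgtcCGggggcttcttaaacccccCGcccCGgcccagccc

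VIL1 (ENSG00000127831.6, chromosome 2) was the mirror case. It encodes villin, which bundles and cuts filaments in the microvilli of intestinal, kidney and bile canalicular epithelium. It had 0 counts in SKHEP1 and 8705 counts and 370.9 TPM in HepG2, at least 2643-fold higher in HepG2, where it ranked 346 by TPM. The plastins, another group of bundlers, were dominated by PLS3, or T-plastin, in both lines. PLS3 had 218.6 TPM in SKHEP1 and 91.2 TPM in HepG2, 2.29-fold higher in SKHEP1. PLS1 (ENSG00000120756.8, chromosome 3), the plastin of intestinal brush borders, had 128 counts in SKHEP1 and 578 in HepG2, 4.11-fold higher in HepG2 (3.39 to 5.02). LCP1 (ENSG00000136167.9, chromosome 13), or L-plastin, typical of leukocytes, had 13 counts in SKHEP1 and 82 in HepG2, 5.75-fold higher in HepG2 (3.18 to 11.3). The intervals of PLS1 and LCP1 reach below 4, so counting error alone leaves their calls uncertain. Of 11 leukocyte markers, 7 were under 10 counts in both lines, with PTPRC at 5 counts in SKHEP1 and 0 in HepG2, and their summed TPM was 11.5 in SKHEP1 and 16.6 in HepG2. ITGB2 and CORO1A were the markers with most counts, ITGB2 at 165 in SKHEP1 and 143 in HepG2, and CORO1A at 50 in SKHEP1 and 148 in HepG2. Their part in the LCP1 value was not tested.

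The alpha-actinins and fascin lay within 4-fold. ACTN4, which cross-links nonmuscle actin, had 977.1 TPM in SKHEP1 and 413.6 TPM in HepG2, 2.35-fold higher in SKHEP1. Its paralog ACTN1 had 370.7 TPM in SKHEP1 and 181.5 TPM in HepG2, 1.94-fold higher in SKHEP1. ACTN4 led ACTN1 in both lines, with 2.64 transcripts per ACTN1 transcript in SKHEP1 and 2.28 in HepG2. FSCN1, or fascin, the bundler of filopodia, differed little, at 60.9 TPM in SKHEP1 and 49.7 TPM in HepG2.

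All 4 focal adhesion genes had a ratio above 1, and 2 passed 4-fold. PXN (ENSG00000089159.11, chromosome 12), or paxillin, a docking protein for signalling at adhesions, had 8468 counts and 253.6 TPM in SKHEP1, against 1319 counts and 31.9 TPM in HepG2, 7.05-fold higher in SKHEP1 (6.65 to 7.47). VCL (ENSG00000035403.12, chromosome 10), or vinculin, which reinforces the link from talin to actin under load, had 10294 counts and 161.2 TPM in SKHEP1, against 2422 counts and 33.9 TPM in HepG2, 4.67-fold higher in SKHEP1 (4.46 to 4.88). TLN1, or talin, the integrin activator, had 134.6 TPM in SKHEP1 and 72.9 TPM in HepG2, a 1.90-fold difference. ZYX, or zyxin, a sensor of strained filaments, had 122.4 TPM in SKHEP1 and 88.8 TPM in HepG2, a 1.31-fold difference. The 4 genes were therefore not shifted by a common factor.

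Profilin and the cofilins were higher in SKHEP1 within 4-fold, and gelsolin was higher in HepG2. PFN1, or profilin, which loads monomers onto growing ends, had 1909 TPM in SKHEP1 and 677.3 TPM in HepG2, 2.73-fold higher in SKHEP1 (2.67 to 2.79). CFL1, the nonmuscle cofilin that severs old filaments, had 1739 TPM in SKHEP1 and 919.4 TPM in HepG2, a 1.87-fold difference. CFL2, the muscle-type cofilin, was close between the lines at 378.3 TPM in SKHEP1 and 276.9 TPM in HepG2. GSN (ENSG00000148180.12, chromosome 9), or gelsolin, a calcium-dependent severing and capping protein made in cytoplasmic and plasma forms, had 1116 counts and 40.2 TPM in SKHEP1, against 5928 counts and 193.8 TPM in HepG2. It was 4.84-fold higher in HepG2 (4.54 to 5.16), and SKHEP1 had 0.0231 GSN transcripts per CFL1 transcript, against 0.211 in HepG2.

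The ERM family was led by moesin in SKHEP1, whereas moesin was near 0 in HepG2. MSN (ENSG00000147065.12, chromosome X), or moesin, had 22621 counts and 474.0 TPM in SKHEP1, against 2 counts and 0.04 TPM in HepG2, which gives a 12418-fold difference (3437 to 102545). Its ratio was the largest with counts in both lines, FLNC and VIL1 having lower bounds only, and it made up 65.0% of ERM transcripts in SKHEP1 and 0.0293% in HepG2. EZR, or ezrin, the ERM protein typical of epithelial microvilli, had 145.5 TPM in SKHEP1 and 77.4 TPM in HepG2, 1.79-fold higher in SKHEP1 (1.72 to 1.87). RDX, or radixin, the main ERM protein of bile canaliculi in mouse liver, had 110.0 TPM in SKHEP1 and 59.3 TPM in HepG2, 1.87-fold higher in SKHEP1 (1.79 to 1.96). EZR and RDX kept nearly the same balance, at 1.32 EZR transcripts per RDX transcript in SKHEP1 and 1.31 in HepG2. The summed ERM level was 729.6 TPM in SKHEP1 and 136.7 TPM in HepG2, and without MSN both remaining genes were still above 1 in ratio. Coding sequences of the 3 genes were 71.1% to 75.9% identical with no identical run over 32 bases, and all had whole expected counts in both lines. The single moesin pseudogene listed took 5 counts in SKHEP1, against 0 in HepG2.

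The RefSeq table gives MSN 2 starts, shown because MSN was near 0 in HepG2 while EZR and RDX were not. The 200 bases before the first start (chrX:65588177-65588376, plus strand) held 5 CpG, and those before the second (chrX:65667454-65667653, plus strand) held 24, with CpG in capitals. Neither window held a CArG box, and which start was used in SKHEP1 is not resolved by values per gene.
MSN first start: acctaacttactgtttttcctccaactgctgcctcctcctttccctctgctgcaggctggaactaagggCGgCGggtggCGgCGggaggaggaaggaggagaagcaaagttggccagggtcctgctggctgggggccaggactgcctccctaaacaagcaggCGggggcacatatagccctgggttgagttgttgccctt
MSN second start: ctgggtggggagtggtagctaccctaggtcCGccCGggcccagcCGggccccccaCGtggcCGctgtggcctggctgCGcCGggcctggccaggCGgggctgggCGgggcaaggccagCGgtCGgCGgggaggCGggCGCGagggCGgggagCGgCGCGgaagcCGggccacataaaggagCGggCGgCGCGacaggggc

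Smooth muscle genes within the set had no common direction. TPM1, TPM2 and MYL9 were higher in SKHEP1, TAGLN, CNN1, CALD1 and ACTA2 had ratios below 1, and MYLK lay short of 4-fold towards SKHEP1. Of 10 smooth muscle markers outside the set, 7 were under 10 counts in both lines, and MYH11, DES, LMOD1, PLN, KCNMB1 and ITGA8 were at 0 in both. The other 3, or 100% of those compared, passed 4-fold towards SKHEP1, against 16.5% of all genes. The list summed to 75.7 TPM in SKHEP1 and 20.9 TPM in HepG2. SMTN, or smoothelin, had 2482 counts in SKHEP1, against 668 in HepG2, and its ratio was 4.08. The interval of 3.74 to 4.45 reaches below 4. MYOCD, the smooth muscle and heart coactivator of SRF, which also stands in the SRF list, had 140 counts in SKHEP1 and 0 in HepG2. Most fibroblast markers compared were higher in SKHEP1. Of 6 compared among 9 listed, 5 passed 4-fold towards SKHEP1, or 83.3% against 16.5% of all genes, and none the other way, at a summed 201.5 TPM in SKHEP1 and 6.32 TPM in HepG2, with DCN at 0 in both. COL3A1 had 5765 counts and THY1 1402 in SKHEP1, and both had 0 in HepG2. PDGFRB lay the other way within 4-fold, with 103 counts in SKHEP1 and 183 in HepG2, and COL1A2 and PDGFRA were under 10 counts in both lines. The part of these programs in the values of single genes was not tested.

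Other genes of the actin machinery were described by 11 lists that hold no member of the set. Of their 187 genes compared, 40 (21.4%) passed 4-fold towards SKHEP1, against 16.5% of all genes, and 27 (14.4%) towards HepG2, against 13.0% of all genes. The lists differed from each other. The Arp2/3 complex, which nucleates branched networks, had all 10 genes within 4-fold and a median log2 ratio of 0.70. Its subunits ARPC1A and ARPC1B were 2.95-fold and 2.90-fold higher in SKHEP1, as was ARPC3 at 2.47-fold. ACTR3B was 2.44-fold and ARPC5L 1.72-fold higher in HepG2. Of 15 nucleation-promoting factors, 14 lay within 4-fold, with a median of 0.34. The exception was WIPF1, a partner of the WASP proteins, with 347 counts in SKHEP1 and 0 in HepG2. CTTN, or cortactin, was 2.46-fold higher in SKHEP1. ABI1 and CYFIP1, parts of the WAVE complex, were 2.40-fold and 2.00-fold higher in SKHEP1, and its parts BRK1 and WASF1 were 1.25-fold and 1.46-fold higher in HepG2.

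Formins, which build unbranched filaments, and genes for capping and turnover included several past 4-fold towards SKHEP1 and none past it towards HepG2. Of 15 formin and Spire genes 6 passed 4-fold towards SKHEP1, with a median log2 ratio of 1.23. FMNL1 had 1214 counts in SKHEP1 and 17 in HepG2, and FMNL3 had 2032 in SKHEP1 and 57 in HepG2. FMN2 and FHOD3, at 351 and 165 counts in SKHEP1, had 0 in HepG2, whereas DIAPH1, with 3814 counts in SKHEP1 and 6283 in HepG2, and DAAM1, 2.55-fold higher in HepG2, lay the other way. Of 27 capping and turnover genes 9 (33.3%) passed 4-fold towards SKHEP1 and 0 towards HepG2, with a median of 1.13, beside the same shares of all genes, 16.5% and 13.0%. That list summed to 13704 TPM in SKHEP1 and 2711 TPM in HepG2. TMSB4X, or thymosin beta 4, a buffer of actin monomers, had 9289 counts in SKHEP1 and 44 in HepG2. Its paralog TMSB10 was 8.27-fold higher in SKHEP1, at 29468 counts against 3910 in HepG2. TMOD2, a tropomodulin that caps the slow-growing filament end, had 429 counts in SKHEP1 and 2 in HepG2. CAPG, a gelsolin relative that caps filaments, was 31.5-fold higher in SKHEP1 (26.9 to 37.1), opposite to gelsolin. LIMK2, a kinase that inactivates cofilin, was 3.42-fold higher in HepG2.

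**Figure D5:**
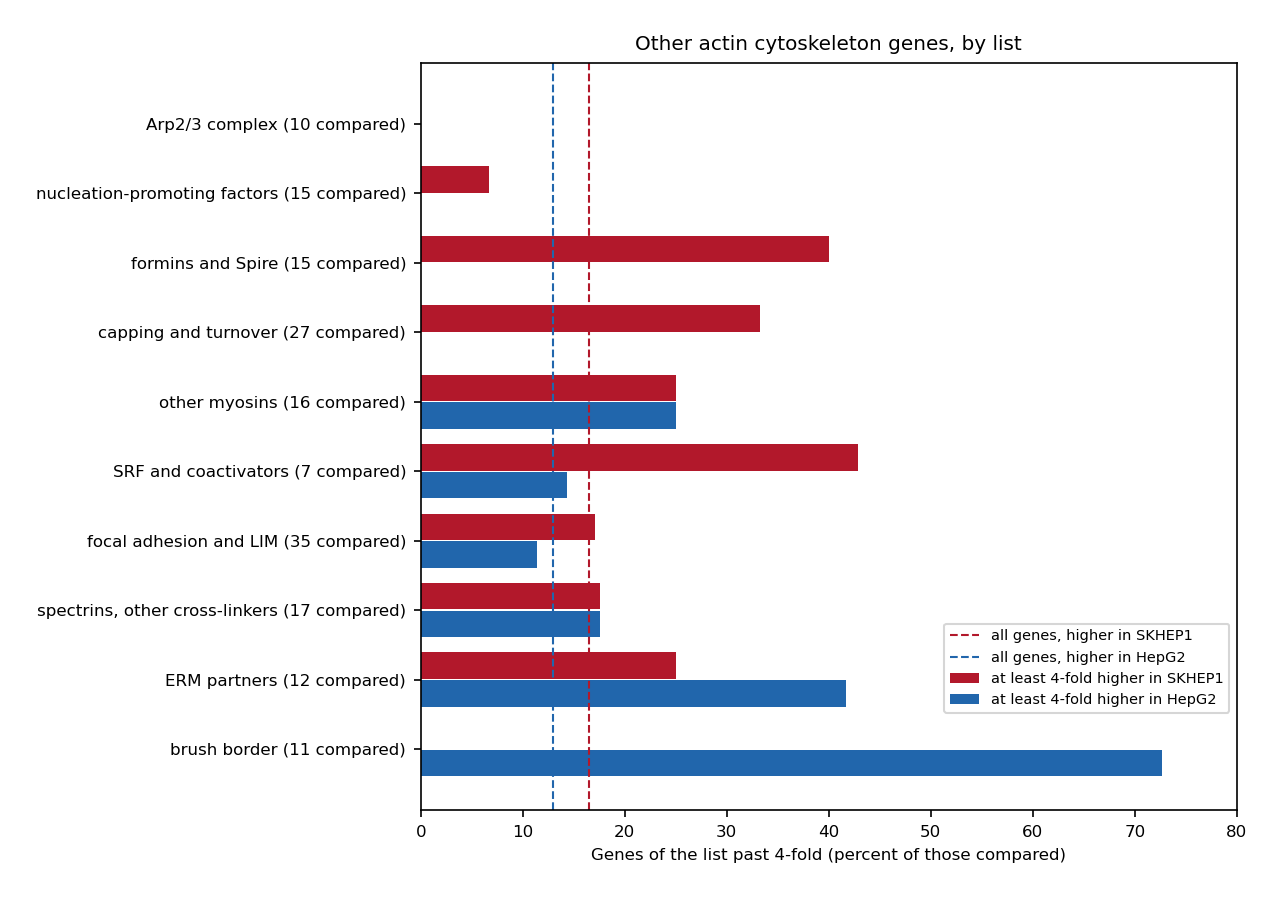
Percent of the compared genes of 10 of the 11 lists that were at least 4-fold higher in SKHEP1 (upper bar) or HepG2 (lower bar), with dashed lines at 16.5% and 13.0% for all genes. The nucleation, formin and capping lists have bars towards SKHEP1 alone, the brush border list has one towards HepG2 alone, at 72.7%, and the Arp2/3 list has none.

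Brush border genes shared the direction of villin. Of 11 compared, 0 passed 4-fold towards SKHEP1, against 16.5% of all genes, and 8 (72.7%) towards HepG2, against 13.0%. The median log2 ratio was -5.72. ANKS4B and CDHR2, a scaffold and a protocadherin of the complex that links microvillus tips, were at 0 counts in SKHEP1, against 1138 and 1023 in HepG2. ESPN, or espin, another actin bundler, had 2 counts in SKHEP1 and 388 in HepG2. EPS8L3 had 0 counts in SKHEP1 and 387 in HepG2. MYO1A, the myosin that ties the bundle to the microvillus membrane, had 1 count in SKHEP1 and 95 in HepG2, a gene also held by the list of other myosins. The other 3 of the 14 listed genes were under 10 counts in both lines. Epithelial markers had a mixed direction, with 1 of 8 compared past 4-fold towards SKHEP1 and 4 towards HepG2. The shares of all genes were 16.5% towards SKHEP1 and 13.0% towards HepG2. The marker past 4-fold towards SKHEP1 was CLDN7, with 889 counts in SKHEP1 and 0 in HepG2. CDH1, or E-cadherin, had 0 counts in SKHEP1 and 439 in HepG2, while KRT18 was 3.18-fold higher in SKHEP1, within 4-fold.

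ERM partners at the membrane were split. Of 12 compared, 3 (25.0%) passed 4-fold towards SKHEP1, against 16.5% of all genes, and 5 (41.7%) towards HepG2, against 13.0%. The median was -0.31. CD44, a hyaluronan receptor whose tail binds ERM proteins, had 47924 counts in SKHEP1 and 6 in HepG2. PODXL, or podocalyxin, had 10271 in SKHEP1 and 22 in HepG2. SLC9A3R1, the scaffold EBP50 that joins ERM proteins to membrane transporters, had 581 in SKHEP1 and 5642 in HepG2, 8.85-fold higher in HepG2. SDC2, or syndecan 2, had 9 in SKHEP1 and 6774 in HepG2.

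Other motors, the SRF genes and adhesion genes also went both ways. Of 16 other myosins 4 (25.0%) passed 4-fold towards each line, against 16.5% of all genes towards SKHEP1 and 13.0% towards HepG2. The median was 0.81. MYO5A was 8.93-fold higher in SKHEP1, whereas its paralogs MYO5B and MYO5C, at 4 and 39 counts in SKHEP1, had 1522 and 1810 in HepG2. Among 7 genes of the SRF list 3 (42.9%) passed 4-fold towards SKHEP1, against 16.5% of all genes. Towards HepG2 it was 1 (14.3%), near the 13.0% of all genes, and the median was 0.19. SRF itself was 1.77-fold higher in HepG2, and its coactivator MKL2 4.37-fold, while the LIM proteins FHL1, with 579 counts in SKHEP1 and 0 in HepG2, and FHL2, 23.4-fold, were higher in SKHEP1. Of 35 focal adhesion and LIM genes 6 (17.1%) passed 4-fold towards SKHEP1 and 4 (11.4%) towards HepG2, shares near those of all genes, and the median was 0.30. TRIP6 had 2679 counts in SKHEP1 and 1 in HepG2, and PARVB 501 in SKHEP1 and 3 in HepG2. TNS4 had 1 count in SKHEP1, against 421 in HepG2. Of 17 spectrins and other cross-linkers 3 (17.6%) passed 4-fold towards each line, against 16.5% of all genes towards SKHEP1 and 13.0% towards HepG2, and the median was -0.48. MARCKS was 5.81-fold higher in SKHEP1 and its paralog MARCKSL1 5.97-fold higher in HepG2. ADD2 was 145-fold higher in SKHEP1.

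Gene-level tables still hold a trace of isoform use, since the deposited gene length is weighted by the estimated isoforms. Of 34 members with at least 100 counts in both lines, 26 had lengths within 5% of each other. The 6 with the largest relative differences were PLS1, MYLK, TAGLN2, PXN, MYH10 and MYL6. PLS1 averaged 3171 bases in SKHEP1 and 2625 in HepG2, and MYLK, which encodes long and short kinase forms, 5265 in SKHEP1 and 4580 in HepG2. TAGLN2 averaged 1598 bases in SKHEP1 and 1481 in HepG2, and MYL6 713 in SKHEP1 and 667 in HepG2. PXN and MYH10 were shorter in SKHEP1, at 2817 and 5934 bases, against 3058 and 6433 bases in HepG2. These are estimates from short reads with no error given, and which isoforms differ cannot be read from them. For 13 members exons overlap another compared gene in GENCODE 29, mostly on the opposite strand. Among these are ACTA2 with FAS, TAGLN with PCSK7, VCL with AP3M1, and VIL1 with USP37, and since the strand setting of the counting is not given in the sources used here, such values are uncertain. USP37 had 635 counts in SKHEP1, where VIL1 had 0, which speaks of that pair alone. Other overlapping genes differed between the lines. ENO3, which overlaps PFN1, had 102 counts in SKHEP1 and 857 in HepG2. SMARCC2, which overlaps MYL6, had 2889 in SKHEP1 and 883 in HepG2. MYL6B overlaps MYL6 on the same strand, with 971 counts in SKHEP1 and 787 in HepG2. The part of these genes in the member values was not tested.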

How the data were processed

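RNA-seq gene tables of SKHEP1 and HepG2 were used, with each sample's group read from its cell line label. Reads were handled by the authors with cutadapt, STAR, RSEM and DESeq2 on hg19, per the submitters' processing notes. Versions, annotation and strand setting: not given in the sources used here. Per the file headers, the deposited tables give expected counts (estimated reads per gene), TPM, FPKM and isoform-weighted lengths in bases. The expected count of 95.2% of genes in SKHEP1 and 95.0% in HepG2 was a whole number, within 0.001 and including zeros.

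These values were rounded and scaled to CPM with TMM factors of 1.01 for SKHEP1 and 0.99 for HepG2 (edgeR 4.0.16, R 4.3.3). Genes with at least 10 expected counts in either library were compared, and a count under 3 was replaced by 3, a floor of 0.148 CPM in SKHEP1 and 0.135 CPM in HepG2. Where a gene had 1 to 3 counts, the raw ratio is printed. Exact Poisson limits gave intervals for levels, and conditional Clopper-Pearson limits gave those for ratios. No difference was tested. The calculation was tried on simulated data with counting error alone. That simulation held no variation between cultures or libraries and cannot speak to it. The members, 11 lists of pathway genes and 7 of markers were chosen with earlier results of these data known. All members were named, with up to 4 genes per list by size of ratio at 100 or more counts, up to 2 that went against the list, and the 6 largest length differences. Some genes, 1 of the pathway lists and the filamin shares are not reported here. Other genes named, among them CDH5, KDR, PTPRC, MYO1A and the genes given at 0 counts, were chosen after their values were seen. Gene types and chromosomes came by stable identifier from GENCODE 29, and promoter sequences from RefSeq (GRCh38.p14), so no coordinates of the files' build are given. Calculations used Python 3.11.15, numpy 2.4.6, pandas 2.3.3, scipy 1.17.1, Biopython 1.88 and matplotlib 3.10.9. Alternatives were total counts, DESeq2 1.42.0 size factors, deposited TPM or FPKM, thinning, a prior count of 2, unrounded counts, minimums of 50 and 1 counts, call limits at 2-fold or 8-fold, the interval bound, the mean, and near-identical genes summed.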

Additional observations from a re-analysis of the deposited data

How the results depend on the processing

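The settings tried were total counts, DESeq2 size factors, the deposited TPM or FPKM values, and thinning of HepG2 to the SKHEP1 total. A prior count of 2, unrounded counts and summing near-identical genes were also tried. None of the 40 members compared changed its side of the 4-fold limit or the direction of its ratio. ACTG2, which was not compared, moved past the limit, from a log2 ratio of -1.45 to -2.05 with deposited TPM and -2.075 with deposited FPKM. The counts of 10 members higher in SKHEP1 and 5 in HepG2 held under these settings and with minimums of 50 and 1 counts. The median log2 ratio was 0.93 with total counts, 0.85 with DESeq2 size factors and 1.11 as a mean. With a limit of 2-fold, 14 members were higher in SKHEP1 and 8 in HepG2, and with 8-fold 6 in SKHEP1 and 1, VIL1, in HepG2. Requiring the 95% interval to lie past 4-fold left 10 in SKHEP1 and 3 in HepG2, without LCP1 and PLS1. Shares of all genes at 2-fold, at 8-fold or under the interval rule are not given, so these counts have no background beside them. With shares of expected counts in place of TPM, 3 of 10 families again had another leading gene. The other lists gave 38 to 41 genes higher in SKHEP1 and 23 to 30 in HepG2. No paired analysis was possible because each line has 1 library, and leaving out a library would leave no comparison. The floor of 3 counts set for genes listed at 0 equals 0.148 CPM in SKHEP1 and 0.135 CPM in HepG2, and ratios against it depend on depth.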

Other observations

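Of 25 striated muscle genes listed, 17 were under 10 counts in both lines. Among the 8 compared, 1 passed 4-fold towards SKHEP1, against 16.5% of all genes, and 4 towards HepG2, against 13.0% of all genes. TNNT1, the slow skeletal troponin T, had 1448 counts in SKHEP1 and 7 in HepG2, 227-fold higher in SKHEP1 (109.9 to 565.9). ACTA1, the skeletal muscle actin, had 1 count in SKHEP1 and 450 in HepG2, 409.9-fold higher in HepG2 (73.2 to 16225). Troponins TNNC1, TNNC2 and TNNI2 were at 0 counts in SKHEP1, against 54, 36 and 52 in HepG2. The muscle regulators MYOD1 and MYOG and the giant protein gene TTN had 0 counts in both lines. These genes were chosen after their values were seen.

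Pseudogenes named after members took few reads. The 8 listed for TPM3 summed to 2 counts in SKHEP1 and 118 in HepG2, while TPM3 itself had 14946 in SKHEP1 and 8268 in HepG2. The 10 listed for ACTB summed to 9 counts in SKHEP1 and 2 in HepG2.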
